A study of Mus musculus with 16 samples.

Results

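Vegfa, Car9 and Adm are 3 genes that cells switch on when oxygen runs low, and every probe annotated to them by symbol in the platform's probe table was followed over all 16 arrays of the series. The table lists 2 probes for Vegfa, 3 for Car9 and 1 for Adm, and all 6 passed the filter on dim probes, out of 22678 probes tested and 42831 with a signal. Symbols were at hand only for probes with deposited log2 values, so further probes of the 3 genes would not have been found. The 3 genes are among 9450 named genes with a tested probe. The series compared total RNA of the tissue around a B16 tumor with RNA of control tissue, on Illumina mouse bead arrays. B16 is a pigmented melanoma line of C57BL/6 mice. The control group held 7 arrays, the tumor microenvironment at day 4 after inoculation 4 arrays and the tumor microenvironment at day 14 after inoculation 5 arrays. All 3 groups came from C57BL/6 mice with a labelled age of 8 weeks, and the labels name no further treatment or allele. The labels number the samples of a group, but say neither which tissue the control was nor whether each sample was a separate mouse, so the p-values measure the spread between these samples, which may be technical.

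Hypoxia-inducible factors (HIFs) are transcription factors made of an oxygen-sensitive alpha subunit and the stable partner Arnt. With oxygen present, prolyl hydroxylases mark the alpha subunit for the von Hippel-Lindau ubiquitin ligase and it is degraded, and without oxygen it accumulates and switches on its targets. Vegfa encodes the growth factor that makes endothelial cells sprout new vessels, Car9 encodes carbonic anhydrase IX, a membrane enzyme that hydrates carbon dioxide outside the cell and helps tumor cells export acid, and Adm encodes adrenomedullin, a secreted peptide that widens vessels and tightens the endothelial barrier.

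The promoter windows of the 3 genes are shown because HIF binds DNA at a short core, ACGTG or GCGTG, on either strand. The windows are RefSeq entries of build GRCm38.p6, 250 bases before to 50 after a gene start, written 5′ to 3′ on the strand of the gene, with matches to either core in capitals (CACGT and CACGC are the same cores read on the other strand). All 3 genes had an entry, and Vegfa had 2.
Vegfa, first start, chr17:46032328-46032627, minus strand: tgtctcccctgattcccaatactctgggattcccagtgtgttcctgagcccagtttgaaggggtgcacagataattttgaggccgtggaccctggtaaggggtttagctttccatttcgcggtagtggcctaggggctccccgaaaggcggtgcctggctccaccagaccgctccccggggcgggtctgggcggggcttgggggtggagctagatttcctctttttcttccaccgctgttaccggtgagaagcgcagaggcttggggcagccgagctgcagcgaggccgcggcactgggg
Vegfa, second start, chr17:46025114-46025413, minus strand: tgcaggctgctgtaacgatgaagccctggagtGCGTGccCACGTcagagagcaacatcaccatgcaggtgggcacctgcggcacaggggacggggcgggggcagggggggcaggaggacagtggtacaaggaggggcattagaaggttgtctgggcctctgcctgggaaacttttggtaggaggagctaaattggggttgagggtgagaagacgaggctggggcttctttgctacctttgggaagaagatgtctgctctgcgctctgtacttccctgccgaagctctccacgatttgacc
Car9, chr4:43506776-43507075, plus strand: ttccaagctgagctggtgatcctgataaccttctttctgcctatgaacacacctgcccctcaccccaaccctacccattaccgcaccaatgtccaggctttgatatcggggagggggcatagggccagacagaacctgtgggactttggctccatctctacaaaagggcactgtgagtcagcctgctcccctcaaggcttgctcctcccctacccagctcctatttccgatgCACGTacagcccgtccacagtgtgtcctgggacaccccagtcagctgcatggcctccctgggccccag
Adm, chr7:110627407-110627706, plus strand: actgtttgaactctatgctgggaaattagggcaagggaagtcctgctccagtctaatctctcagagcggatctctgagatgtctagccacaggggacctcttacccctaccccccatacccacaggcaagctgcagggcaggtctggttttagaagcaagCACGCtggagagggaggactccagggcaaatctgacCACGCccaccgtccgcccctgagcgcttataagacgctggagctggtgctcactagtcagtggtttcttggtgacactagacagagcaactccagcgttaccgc
The first Vegfa window held 0 matches, the second held 2, the Car9 window 1 and the Adm window 2. Both Vegfa matches thus belong to the second start, which lies downstream of the first on the minus strand. Whether the window of this downstream start acts as a promoter was not tested, and the window of the upstream start held no match. They begin 218 and 211 bases before that second start. The Car9 match begins 18 bases before the gene start, and the Adm matches begin 90 and 54 bases before it. Of all 32851 promoter windows of that length, 43.8% held at least 1 match, and of the windows of named genes tested here 60.3% did. Of the 55 windows of the measured HIF genes described further on, 76.4% did. A match describes the letters in the window and is no measurement of binding.

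The arrays detected 15555 to 21669 probes each. Day 4 array 4 and day 14 arrays 2 and 5 stood apart from the other 13 on the first principal component, which held 63.8% of the variance, with scores of 191, 189 and 198 against -87.7 to 35.5. On these 3 arrays 1 to 5 of 13 keratinocyte, 2 to 5 of 15 skeletal muscle, 3 to 5 of 13 fibroblast, 2 to 3 of 11 endothelial and 1 of 14 macrophage markers were detected, and 12 of 12 pigment cell markers. On the other 13 arrays at least 12 of the keratinocyte, 15 of the muscle, 13 of the fibroblast, 11 of the endothelial and 13 of the macrophage markers were detected. Pigment cell markers were detected on control arrays too, 5 of 12 on control array 1 and at least 11 on the other 6. Their mean log2 level ran from 5.57 to 11.81 on control arrays, 8.18 to 11.89 at day 4 and 8.06 to 11.65 at day 14. On the 3 arrays it was 11.27 to 11.54. The groups compared below thus overlapped in pigment cell transcripts. These are bulk samples, so fewer cells of a type and less RNA per cell cannot be told apart. Results that rest on the 3 arrays are given with and without them.

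Vegfa transcripts were detected on all 16 arrays with both probes, at levels that overlapped between control tissue and the tumor site. Levels are log2 normalized signals, on which a step of 1 is a doubling. With probe ILMN_2484527 the 7 control arrays read from 8.98 to 10.67, with a median of 10.11. The 4 day 4 arrays read 10.05, 9.71, 10.18 and 10.28, and the 5 day 14 arrays 9.68, 11.41, 10.12, 9.24 and 10.55. Every day 4 value lay inside the control range, while the day 14 arrays held the highest reading of the series, on array 2, and one of its lowest, on array 4. The group means were 9.99 ± 0.59 (SD, n = 7) for control, 10.05 ± 0.25 (SD, n = 4) for day 4 and 10.20 ± 0.84 (SD, n = 5) for day 14. The 3 groups overlapped, and neighbours in that order differed by less than the SD within the groups.

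The other Vegfa probe, ILMN_3121255, is annotated to a different Vegfa transcript record. Its control arrays read from 7.60 to 9.17, with a median of 8.85. Its day 4 arrays read 9.51, 8.17, 9.03 and 8.83, and its day 14 arrays 8.70, 9.35, 9.48, 7.63 and 9.25. Control array 1 and day 14 array 4 were lowest and nearly equal, and the 3 highest readings were all at the tumor site, on day 4 array 1 and day 14 arrays 3 and 2. The means were 8.66 ± 0.51 (SD, n = 7) for control, 8.89 ± 0.55 (SD, n = 4) for day 4 and 8.88 ± 0.76 (SD, n = 5) for day 14, again with overlapping groups. The span from the lowest to the highest array was 2.43 on the log2 scale for ILMN_2484527 and 1.91 for ILMN_3121255, and the SDs of the probes over the 16 arrays lay at the 54.4th and 53.0th percentile of all probes tested.

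Car9 spanned a wider range over the 16 arrays than Vegfa did, with 1 low control array as its lower end. With ILMN_2874084, the probe detected on all 16 arrays, control array 1 read 5.19 while the other 6 control arrays read 8.49 to 9.70, and the control median was 9.52. The day 4 arrays read 10.62, 8.82, 9.37 and 8.07, and the day 14 arrays 9.18, 6.64, 10.63, 7.68 and 7.54. The tumor-site arrays day 4 array 1 and day 14 array 3, stood above every control array, and 3 of the 5 day 14 arrays stood below every control array but array 1. The means were 8.78 ± 1.64 (SD, n = 7) for control, 9.22 ± 1.07 (SD, n = 4) for day 4 and 8.33 ± 1.58 (SD, n = 5) for day 14. The lowest and the highest array differed by 5.44 on the log2 scale, a 43.5-fold span of normalized signal. Control array 1, the low end, was near background (deposited detection p-value of 0.0214), so the fold depends on how background was treated. The deposited log2 values were 7.15 on that array and 10.74 on day 14 array 3. The SD of the probe lay at the 92.7th percentile of all probes tested.

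The other Car9 probes gave the same extremes. With ILMN_1244145 the control arrays ran from 4.82 to 7.51 with a median of 7.21, the day 4 arrays read 8.15, 6.71, 7.13 and 7.04, and the day 14 arrays 6.96, 5.66, 8.41, 6.06 and 6.47. With ILMN_2730999 the control arrays ran from 4.48 to 7.43 with a median of 7.13, the day 4 arrays read 7.68, 6.18, 7.56 and 7.11, and the day 14 arrays 7.01, 6.15, 9.39, 5.55 and 6.83. Day 14 array 3 and day 4 array 1 were the highest and control array 1 the lowest with all 3 probes. Neither of these 2 probes was detected on control array 1 (detection p-values of 0.106 and 0.575 in the deposited table), and both were detected on the other 15 arrays. Their group means ran from 6.71 ± 1.06 (SD, n = 5) at day 14 to 7.26 ± 0.62 (SD, n = 4) at day 4 for ILMN_1244145. For ILMN_2730999 they ran from 6.73 ± 1.03 (SD, n = 7) in control to 7.13 ± 0.68 (SD, n = 4) at day 4, so that the order of control and day 14 differed between the probes.

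Adm read just above background on most arrays and varied little. Its probe, ILMN_1247207, was detected on 13 of the 16 arrays, and the 3 on which it was not detected were day 4 array 4 and day 14 arrays 2 and 5, the arrays that stood apart. The control arrays read from 5.12 to 5.88, with a median of 5.51. The day 4 arrays read 5.66, 5.32, 5.31 and 5.37, and the day 14 arrays 5.17, 4.58, 6.02, 5.21 and 4.80. Day 14 array 3 was the highest of all 16 and the other 4 day 14 arrays were below the control median. The means were 5.58 ± 0.28 (SD, n = 7) for control, 5.41 ± 0.16 (SD, n = 4) for day 4 and 5.16 ± 0.55 (SD, n = 5) for day 14. The SD of the probe over the 16 arrays lay at the 23.4th percentile of all probes tested.

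**Figure D1:**
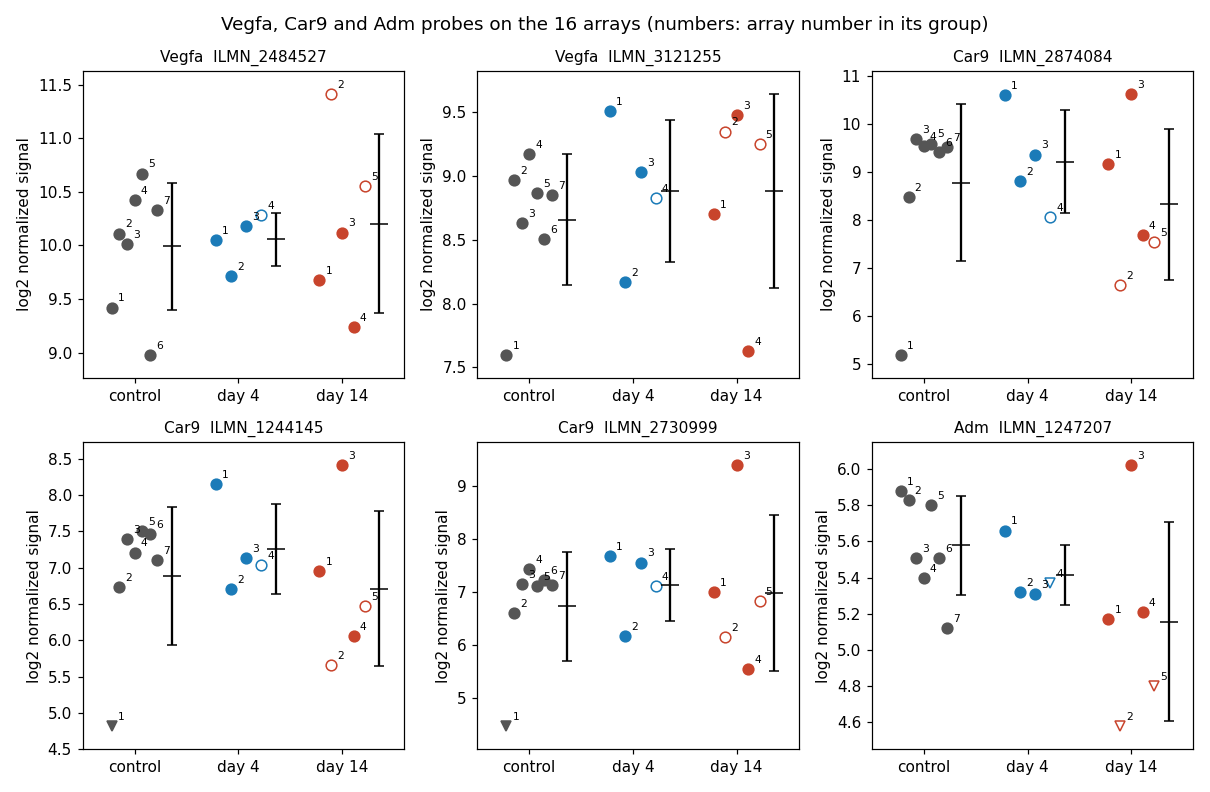
Log2 normalized signal of the 6 probes (vertical axes, each with its own scale that does not start at 0) by group, 1 point per array numbered as in its group, with the mean and SD of each group at its right. Open symbols are day 4 array 4 and day 14 arrays 2 and 5, and triangles are arrays on which the probe was not detected. Control array 1 lies lowest on the 3 Car9 probes, at 5.19, 4.82 and 4.48, and the groups overlap on every probe.

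The comparison of day 4 with control asks whether the 3 hypoxia targets differ early at the tumor site, that of day 14 with control whether they differ late, and that of day 14 with day 4 whether they change over time. None of the 6 probes was called in any of them, and in all 18 pairings of a probe and a comparison the 2 groups overlapped. A call needed a Benjamini-Hochberg adjusted p under 0.05 in limma and at least a 2-fold difference. No probe of the whole array reached it at day 4 against control (0% of 22678), at day 14 against control (0%) or at day 14 against day 4 (0%). At an unadjusted p under 0.05 limma listed 173, 3553 and 186 probes, none of them a probe of Vegfa, Car9 or Adm. Groups that do not overlap were found for 0.101%, 0.238% and 0.163% of all probes in these 3 comparisons.

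For day 4 against control the log2 difference of Vegfa was 0.06 with ILMN_2484527 (95% interval -0.74 to 0.87) and 0.23 with ILMN_3121255 (-0.55 to 1.01). Both intervals include 0 and reach about a 2-fold higher level. The 3 Car9 probes had higher means at day 4 by 0.44 (-1.40 to 2.28), 0.37 (-0.78 to 1.52) and 0.40 (-0.99 to 1.78), in the order given above. Without day 4 array 4 and day 14 arrays 2 and 5 the first of them differed by 0.82 (-1.14 to 2.78). Adm had a difference of -0.17 (-0.68 to 0.35). The adjusted p-values of limma ran from 0.816 to 0.957, and exact two-sided permutation tests over the arrays gave p = 0.312 for Adm and 0.515 to 0.845 for the other probes.

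For day 14 against control the differences were 0.21 (95% interval -0.54 to 0.96) and 0.22 (-0.51 to 0.96) for the Vegfa probes. The Car9 probes differed in sign, at -0.45 (-2.17 to 1.27), -0.18 (-1.25 to 0.90) and 0.25 (-1.04 to 1.54). Adm had the lowest p of the 18 pairings, with a log2 difference of -0.42 (-0.91 to 0.06), an adjusted p = 0.317 in limma and p = 0.11 in the exact permutation test, where 792 splits allow a smallest p of 0.00126. Without day 4 array 4 and day 14 arrays 2 and 5, on none of which Adm was detected, its difference was -0.11 (-0.61 to 0.39). The same omission turned Vegfa to -0.31 (-1.04 to 0.41) and -0.05 (-0.94 to 0.84) and the first and second Car9 probe to 0.38 (-1.58 to 2.34) and 0.25 (-1.04 to 1.54), and the third Car9 probe stood at 0.58 (-1.05 to 2.22). The sign of the day 14 difference thus changed for both Vegfa probes and for 2 of the 3 Car9 probes with the arrays counted.

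Day 14 against day 4 gave -0.89 (95% interval -2.86 to 1.08) for ILMN_2874084 of Car9, the farthest from 0 of all 18, and -0.54 (-1.78 to 0.69) and -0.14 (-1.62 to 1.33) for the other Car9 probes. Vegfa differed by 0.15 (-0.71 to 1.01) and -0.01 (-0.84 to 0.83), and Adm by -0.26 (-0.81 to 0.30). Without the 3 arrays set apart the Car9 differences were -0.44, -0.19 and 0.18, those of Vegfa -0.30 with both probes, and that of Adm 0.04. Leaving out single arrays moved ILMN_2874084 of Car9 between -1.46, without day 14 array 3, and -0.42, without day 4 array 1, and it was -0.462 without day 14 array 2. Over the same omissions ILMN_1244145 moved between -0.968 and -0.247. The exact permutation p was 0.365 at the lowest, with 0.00794 the smallest that 126 splits allow. The comparisons with control share the control arrays and are not independent.

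**Figure D2:**
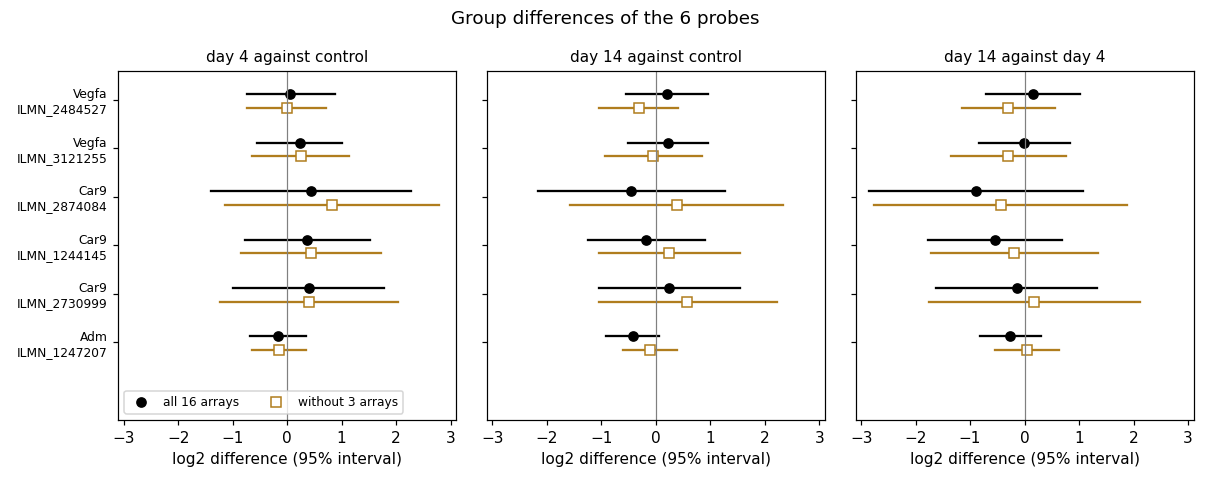
Log2 difference of each probe (points) with its 95% interval from limma (lines) in the 3 comparisons, over all 16 arrays (filled circles) and without day 4 array 4 and day 14 arrays 2 and 5 (open squares). Every interval includes 0, and the Car9 intervals are the widest, such as -2.17 to 1.27 for ILMN_2874084 at day 14 against control.

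Levels of several of the probes went together across arrays. Because 3 arrays stood apart, correlations of log2 levels are given over the other 13, for the 15 pairs of probes, with permutation p-values from 100000 resamples adjusted over the pairs. The 3 Car9 probes followed each other closely, with Pearson r of 0.98, 0.91 and 0.94 (Spearman rho 0.94, 0.84 and 0.87, adjusted p of r at most 7.5e-05), and with r of 0.82 to 0.96 when the 2 arrays farthest from the median were left out. The 2 Vegfa probes followed each other less closely (r = 0.68, rho = 0.70, adjusted p = 0.0266), and without the 2 farthest arrays, control array 6 and day 14 array 4, r was 0.65 with an adjusted p of 0.062. Among arrays left out singly, the Vegfa pair no longer passed without day 14 array 4 (r = 0.589, adjusted p = 0.0964) or control array 1 (r = 0.637, adjusted p = 0.0506), while without control array 6 r was 0.761 (adjusted p = 0.00949).

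Vegfa and Car9 went together with 1 Vegfa probe. ILMN_3121255 correlated with the 3 Car9 probes at r = 0.84, 0.86 and 0.89 (rho 0.70, 0.70 and 0.81, adjusted p of r = 0.0002, 0.0002 and 5e-05). Without the 2 farthest arrays, control array 1 and day 14 array 4, r was 0.69, 0.69 and 0.75 (adjusted p = 0.0449, 0.0449 and 0.0247). Within the 6 remaining tumor-site arrays r was 0.97, 0.95 and 0.90, while within the 6 control arrays other than array 1 it was -0.26, -0.51 and -0.04. These r within groups were not tested. Those 6 controls read only 8.49 to 9.70 in ILMN_2874084 of Car9, too narrow a range on too few arrays to decide whether the relation held there. With array 1 counted, the 7 controls gave 0.85, 0.81 and 0.87. Over all 16 arrays r was 0.52, 0.60 and 0.76. Day 14 arrays 2 and 5 read high in this Vegfa probe and low in ILMN_2874084 of Car9.

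The other Vegfa probe went with Car9 less closely. ILMN_2484527 correlated with Car9 at r = 0.48, 0.45 and 0.47 (adjusted p = 0.17, 0.191 and 0.17). No correlation of Adm with the other genes passed, with r from -0.06 to 0.23 (adjusted p = 0.608 to 0.867), although within the 6 tumor-site arrays, with no test, r was 0.61 to 0.89. Day 14 array 3, the highest in Adm and in Car9, is one of those 6.

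**Figure D3:**
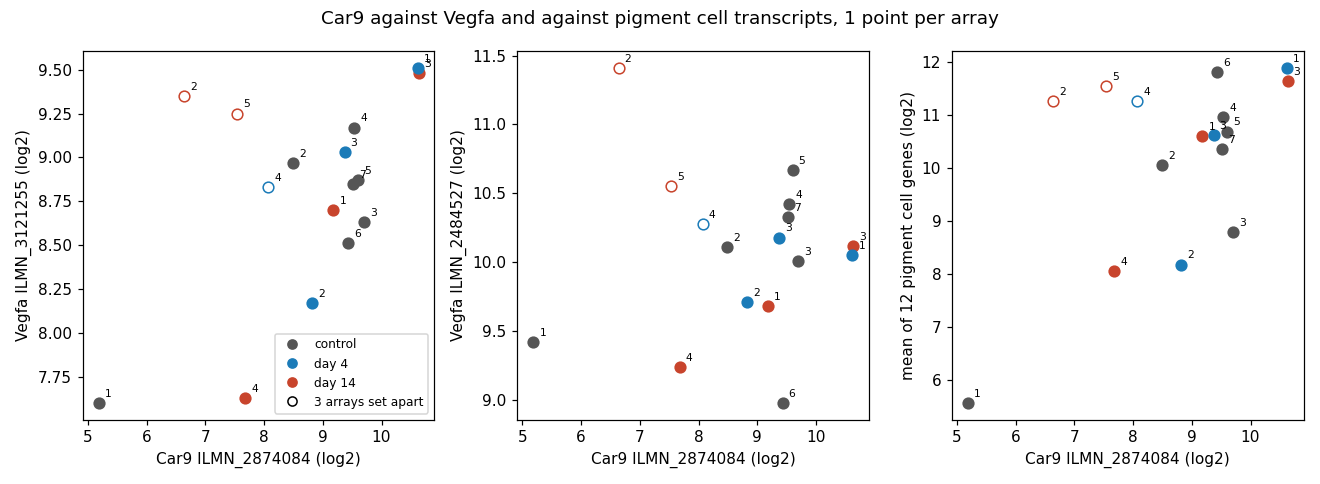
Car9 probe ILMN_2874084 (horizontal axes) against each Vegfa probe and against the mean of 12 pigment cell genes (vertical axes), all in log2 normalized signal, 1 point per array numbered as in its group. Open points are the 3 arrays set apart. Among the 13 filled points, ILMN_3121255 follows Car9 at r = 0.84 and ILMN_2484527 at 0.48, and control array 1 lies at the low end of Car9 and of the pigment cell genes.

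Car9 and the same Vegfa probe also moved with markers of cell types. Over the 13 arrays and 54 pairs of a probe and a marker list, 10 pairs passed at an adjusted p under 0.05. The share of all tested probes that go with these lists as closely was not counted, so the number is no trait of these genes. The Car9 probes correlated with the mean of 12 pigment cell markers at r = 0.88, 0.89 and 0.86 (rho 0.73, 0.87 and 0.85, adjusted p of r = 0.00335, 0.0027 and 0.0027), and ILMN_3121255 of Vegfa at r = 0.85 (rho 0.75, adjusted p = 0.00297). Control array 1, lowest in Car9, had a pigment cell mean of 5.57, with Tyr, Mlana, Mitf, Slc45a2, Oca2, Gpr143 and Mc1r not detected, and day 14 array 4 and day 4 array 2 followed at 8.06 and 8.18. At the other end, day 4 array 1 and day 14 array 3, highest in Car9, had pigment cell means of 11.89 and 11.65. They also had the lowest keratinocyte means of the 13 arrays, 10.51 and 10.18. Control array 6 had a pigment cell mean of 11.81 and a keratinocyte mean of 11.45, and read 9.43 in Car9 ILMN_2874084. The summed signal of the pigment cell list (in units of 1000) ran from 1.12 to 95.1 in controls, from 15.6 to 98.7 at day 4 and from 12.7 to 87.5 at day 14. Without the 2 farthest arrays the correlations were 0.58, 0.74 and 0.81 for Car9 and 0.69 for Vegfa, and none of the 54 pairs passed, with fewer arrays in the test.

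Cell cycle genes gave r = 0.69, 0.76 and 0.81 with the Car9 probes (adjusted p = 0.0126, 0.00612 and 0.0027) and 0.77 with ILMN_3121255 of Vegfa (adjusted p = 0.0126). Keratinocyte markers ran the other way, at r = -0.65, -0.78 and -0.75 with Car9 (adjusted p = 0.0818, 0.0126 and 0.0126). Endothelial markers, the cells on which VEGF acts, correlated with no probe beyond r = 0.42 in either direction (adjusted p = 0.343 or more), and Adm with no list (adjusted p = 0.161 or more). The share of these cell types in the levels of Vegfa and Car9 was not tested. On day 4 array 4 and day 14 arrays 2 and 5, where the pigment cell mean was 11.27, 11.27 and 11.54 and the keratinocyte mean 4.71 to 5.29, Car9 read 8.07, 6.64 and 7.54 with ILMN_2874084. On those arrays high pigment cell transcripts thus did not come with high Car9.

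The named genes whose levels were most like those of each gene, by Pearson r with its brightest probe over the 13 arrays among 9449 genes, differed between the 3. The highest r of so many genes over 13 arrays can be high by chance, and none of these r was tested. For Car9 they were Mgarp at r = 0.98, Ckb, the brain creatine kinase, at 0.95, Tmem106c at 0.95, Arl11 at 0.92 and Syt4, a synaptotagmin, at 0.92. Over all 16 arrays Mgarp kept r = 0.77 and Arl11 0.81, while Ckb had 0.38 and Tmem106c 0. For Vegfa they were Slc7a2, a transporter of cationic amino acids, at 0.90, Aldh1a2, a retinoic acid synthesis enzyme, at 0.86, Fahd1 at 0.85, Tnpo3 at 0.83 and P4ha2, a collagen prolyl hydroxylase subunit that is also a HIF target, at 0.82. Over all 16 arrays the first pair had r = 0.04 and 0.03 and the other three 0.71, 0.87 and 0.69. For Adm they were Cryab, a small heat shock protein, at 0.83, Ikbke at 0.78, Agt, the precursor of angiotensin, at 0.77, Isca1 at 0.76 and Piezo2, a mechanically gated channel, at 0.75. Over all 16 arrays Cryab had r = 0.46, Ikbke 0.66, Agt -0.22, Isca1 0.61 and Piezo2 0.69. In the list for Car9, the brightest Vegfa probe ILMN_2484527 ranked 2152, ILMN_3121255 ranked 72 and Adm 4971 of 9449.

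The wider HIF pathway gave no call either. Of 73 listed genes of 3 HIF lists (targets of glycolysis and metabolism, other targets, and HIF subunits with the oxygen sensors) 54 were measured, and none was called in limma in any comparison. At an unadjusted p under 0.05, 1 gene was higher and 0 lower at day 4 against control, where the share of all 9450 named genes was 0.392% higher and 0.265% lower. For day 14 against control 4 were higher and 5 lower, against 6.33% and 12.2% of all named genes, and for day 14 against day 4 0 in either direction, against 0.201% and 0.381%. The median log2 difference of the 54 genes was 0.16, 0.06 and -0.14 in the 3 comparisons, beside 0.05, 0.04 and -0.03 over all named genes. Without the 3 arrays set apart it was 0.05, -0.06 and -0.14, beside 0.01, -0.04 and -0.06.

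The genes with the lowest p at day 14 pointed both ways, none with an adjusted p under 0.311. Ddit4, an inhibitor of mTOR signalling that hypoxia induces, averaged 9.04 ± 0.29 (SD, n = 7) on control arrays and 10.28 ± 0.77 (SD, n = 5) on day 14 arrays, a log2 difference of 1.24, and was the 1 HIF gene past an unadjusted p under 0.05 at day 4 as well, at 0.85. Without the 3 arrays set apart the Ddit4 differences were 0.75 at day 14 and 0.54 at day 4. Hmox1, heme oxygenase, differed by 0.81 at day 14, Ier3, an early response gene, by 0.60, and Slc2a3, a glucose transporter, by 0.87. Lower means were found for Rora, a nuclear receptor (-1.77), Pfkfb4, a regulator of glycolysis (-1.09), Egln3, an oxygen-sensing prolyl hydroxylase (-1.11), Epas1, the HIF-2 alpha subunit (-1.12), and Ep300, a HIF coactivator (-0.57). Elob, a subunit of the von Hippel-Lindau ligase, differed by 0.37, and the aldolase Aldoc and the phosphoglucomutase Pgm1 by 0.60 and -0.29. Without the 3 arrays Hmox1 stood at 0.39, Slc2a3 at 0.30, Ier3 at 0.51, Elob at 0.33 and Aldoc at 0.39. On the lower side Rora then stood at -0.79, Pfkfb4 at -0.29, Egln3 at -0.43, Epas1 at -0.53, Ep300 at -0.34 and Pgm1 at -0.33.

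Of 10 listed VEGF ligands and receptors 8 were measured, without the receptors Kdr and Flt4, and none was called. At day 14 against control 12.2% of all named genes were lower at an unadjusted p under 0.05. Of the 8, 2 passed that threshold, both lower. These were Vegfd, a ligand of lymphatic vessels (9.69 ± 0.73, SD, n = 7, in control and 7.43 ± 2.66, SD, n = 5, at day 14), and Nrp1, a VEGF coreceptor (11.02 ± 0.30 and 10.10 ± 0.85). Vegfd and Flt1, a VEGF receptor of endothelium, were detected on none of the 3 arrays set apart, and without these arrays their differences were -0.35 and -0.04. Nrp1 was detected on all 16, and its difference was -0.93 with the 3 arrays and -0.34 without. Vegfa, in contrast, read 10.28, 11.41 and 10.55 with ILMN_2484527 on the same arrays. Vegfc, a second lymphatic ligand, read at least 9.20 there and at most 8.74 on the other 13. Such a separation was not particular to Vegfc. Ddit4, for example, read 10.83, 11.14 and 10.90 there and at most 10.31 on the other 13. The share of all probes that separate these arrays was not counted. Vegfb differed by 0.52 and the placental growth factor Pgf by 0.31 at day 14, with adjusted p of 0.567 and 0.687 in limma, and by 0.19 and 0.68 without the 3 arrays.

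Of 11 listed genes of adrenomedullin and its receptors 6 were measured, without the calcitonin receptor-like receptor itself, and none was called. Of the 6, Ramp1 alone had an unadjusted p under 0.05 at day 14 (lower, -1.88), beside 12.2% of all named genes. Ramp1 and Ramp2 encode partners that set which peptide the calcitonin receptor-like receptor binds, and Ramp2 makes it an adrenomedullin receptor. Ramp1 was detected on none of the 3 arrays set apart and on all other 13, and its difference without them was -0.57. Ramp2 was detected on all 16 arrays, with a difference of -0.63 (adjusted p = 0.34 in limma), or -0.25 without the 3 arrays. Ackr3, a scavenger receptor that also takes up adrenomedullin, differed by -0.66 with the 3 arrays and 0.10 without. Ramp3, detected on 12 arrays, differed by 0.70 at day 4, -0.17 at day 14 and -0.87 for day 14 against day 4. Without the 3 arrays these differences were 0.34, -0.11 and -0.45. Crcp was the 1 gene of the 6 with a higher mean at day 14 (0.39, or 0.09 without the 3 arrays).

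Of 11 measured genes of carbonic anhydrases and of lactate and anion transport none was called. Car12 alone had an unadjusted p under 0.05 at day 14 (lower, -2.32, or -0.72 without the 3 arrays), again beside 12.2% of all named genes. Car12 encodes another membrane-bound enzyme with its active site outside the cell. Car3, a cytosolic form of muscle and fat, read 13.24 ± 1.49 (SD, n = 7) in control and 9.43 ± 4.59 (SD, n = 5) at day 14 and was detected on none of the 3 arrays, where Car9 was detected with all its probes. Its difference was -3.81 with these arrays and -0.51 without. Car14 read 12.51, 12.95 and 13.10 on those arrays and 7.33 to 13.28 on the others. The lactate exporter Slc16a3 and the anion exchanger Slc4a2 differed by 0.49 and 0.50 at day 14, with adjusted p of 0.658 and 0.311 in limma, and by 0.22 and 0.25 without the 3 arrays. Car4, a membrane-anchored form, was detected on 7 arrays, none of them among the 3, and differed by 0.94 with them and 2.02 without, where no probe of the array passed adjustment.

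**Figure D4:**
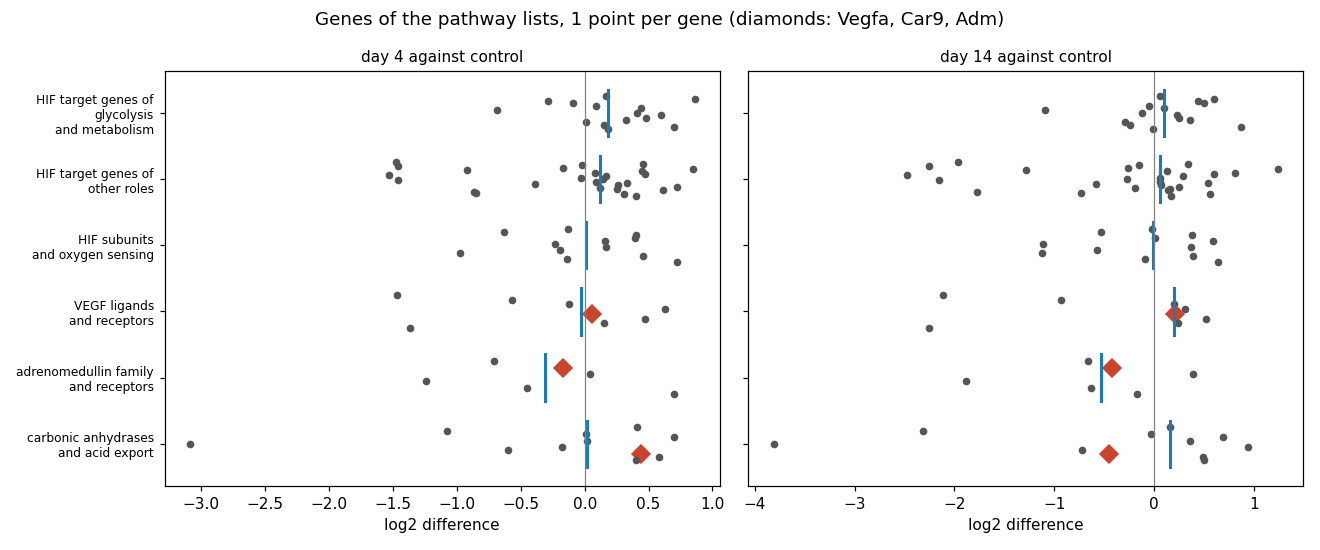
Log2 difference from control at day 4 and day 14 (horizontal axes, of different range) for the measured genes of 6 lists, 1 point per gene by its brightest probe, with the list median as a blue line and Vegfa, Car9 and Adm as diamonds. The list medians at day 14 lie between -0.53 (adrenomedullin list) and 0.20 (VEGF list), and without the 3 arrays set apart these 2 medians are -0.11 and -0.17. The point farthest below 0, Car3 at -3.81, is of a gene detected on none of the 3 arrays.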

How the data were processed

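Values of the 16 arrays came in 2 tables. Per the file headers, the first, from the scanner, pairs every signal with a detection p-value. Its deposited signals are linear intensity values that, judged from their size, still contain background (array medians 105.4 to 155.1). From data line 23 on, the deposited detection p-values stood 2441 lines below their signals, and the shift was removed, after which p fell with the signal with 0 reversals. Of 45272 lines, the 2441 without a probe ID were left out. The deposited value table gives log2 values of 16247 probes, by a method not given in the sources used here, and served as an alternative. Per the labels' protocols, RNA was extracted with Trizol and columns, and cRNA was biotinylated.

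The function neqc of limma 3.58.1 (R 4.3.3) corrected the background by normexp, added an offset of 16, normalized by quantiles and took log2. The 22678 probes kept were detected, at p under 0.05, on 4 or more arrays. One limma model (lmFit, eBayes, two-sided) held the 3 groups, with Benjamini-Hochberg adjustment within each comparison. It was also run on simulated data with independent noise and no arrays that stand apart, so that run is no check of this feature of the data. No slide block was possible without slide labels, and the number of arrays limits the precision. No 2 arrays held identical values (highest correlation 0.988).

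Symbols came from the platform annotation, in which 14124 probes with a signal have 1 symbol, 5 of the annotated probes have several and 1406 have none listed. Gene IDs were found for 14118. Symbols covered only probes of the value table. Exact permutation tests of single probes, correlations and promoter counts were added. Every probe of the 3 genes, the measured genes of 3 family lists, the 4 genes of each HIF list with the lowest unadjusted p at day 14, and the 5 genes most like each member were named. Genes, lists and the 3 arrays set apart were chosen with earlier results of these data known. Alternatives were the value table, no background correction, an offset of 50, no filter, the brightest probe per gene, array weights, a replicate block, only the groups compared, and arrays left out. Correlations without the farthest arrays, within groups, on residuals and with marker lists were added after seeing the data.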

Additional observations from a re-analysis of the deposited data

Results flagged for a closer look

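In 5 of 18 combinations of a probe and a group, 1 array lay far from the others, by a gap to its nearest neighbour that was large against the range of the group. Chance gives such a value in about 1 of 20 groups, and the probes of 1 gene are not independent. Of the 5, 4 were control array 1, which was low at 7.60 for ILMN_3121255 of Vegfa and at 5.19, 4.82 and 4.48 for the Car9 probes ILMN_2874084, ILMN_1244145 and ILMN_2730999. The gap took up 0.576, 0.732, 0.709 and 0.719 of the range of the 7 control arrays. The same array had the lowest mean of pigment cell markers, 5.57, with 5 of 12 detected, and the part of this in its Car9 level was not tested. The fifth was Adm on day 4 array 1, high at 5.66, with a gap of 0.842 of a range that spanned 5.31 to 5.66.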

How the results depend on the processing

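The count of probes called was 0 in all 3 comparisons under each alternative run, limma with single arrays left out included, and none of the 18 differences passed under any of them. Direction was less stable, and the cause was not tested. Without the 3 arrays set apart the differences turned for Vegfa ILMN_2484527 (-0.0139 at day 4, -0.312 at day 14, -0.299 for day 14 against day 4), Vegfa ILMN_3121255 (-0.0522 at day 14), Car9 ILMN_2874084 and ILMN_1244145 (0.38 and 0.254 at day 14), and, for day 14 against day 4, Car9 ILMN_2730999 (0.177) and Adm (0.039). Array weights turned Vegfa ILMN_2484527 (-0.0612, -0.245 and -0.184 in that order of comparisons) and ILMN_3121255 (-0.03 at day 14). For day 14 against day 4, ILMN_3121255 stood at 0.00733 with the value table, 0.0104 without background correction and 0.00171 with an offset of 50, and Car9 ILMN_2730999 at 0.0168 with the value table and 0.0266 without background correction.

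Leaving out single arrays moved the day 4 difference of Vegfa ILMN_2484527 between -0.106 and 0.177 and of Car9 ILMN_2874084 between -0.162 and 0.82. At day 14 the ranges were -0.0936 to 0.45 for Vegfa ILMN_2484527, -0.6 to 0.0861 for Car9 ILMN_1244145 and -0.349 to 0.61 for ILMN_2730999. For day 14 against day 4 they were -0.156 to 0.388 and -0.243 to 0.307 for the Vegfa probes and -0.745 to 0.214 for Car9 ILMN_2730999.

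Over all 16 arrays the correlation of Vegfa ILMN_2484527 was -0.0208 with Car9 ILMN_2874084 and -0.397 with Adm, that of ILMN_3121255 was -0.11 with Adm and, no longer passing, 0.516 with Car9 ILMN_2874084. Car9 ILMN_2874084 and Adm gave 0.317 over 16 arrays, 0.0359 with the value table and 0.377 without the 2 farthest arrays, and the Vegfa pair, without 2, no longer passed (0.654). With single arrays left out, the Vegfa pair ranged from 0.589 to 0.761, Vegfa ILMN_2484527 from 0.411 to 0.646, 0.342 to 0.647 and 0.379 to 0.631 with the Car9 probes, and the Car9 probes and Adm ranged from -0.285 to 0.469, -0.138 to 0.634 and -0.234 to 0.564. The replicate block called 0 probes, and listed 353, 1984 and 74 at an unadjusted p under 0.05 where the fit without it listed 173, 3553 and 186. Same-numbered arrays deviated with correlations of -0.734 to 0.431 over 13 pairs, and 2 of 14 arrays correlated best with their own number, so the numbers share no pairing that the labels or data show. Adm is limited by signal over background, with detection on 13 of 16 arrays.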
